A study of Ziziphus jujuba var. spinosa with 24 samples.

Results

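Leaves of diploid sour jujube taken after 6 h of drought were set against leaves of untreated diploid plants. The libraries were assigned to these groups by their labels, 3 in each group, which makes 6 of the 24 libraries of the series, and all 25829 genes with enough counts among 32527 listed were tested. The drought leaves came from diploid plants of the genotype labelled wild type, Ziziphus jujuba Mill. var. spinosa, whose nutrient solution received polyethylene glycol (PEG6000), an osmotic agent, in steps of 5, 10 and 15% and then 20%, a day apart. The control leaves came from the same diploid stock in what the labels call a control environment. Both groups shared the rest of their history. The stock had been kept for many generations in tissue culture, and the plantlets spent 30 days in culture, 45 days in rooting medium, then 3 days in the dark and 7 days in the light in dilute Hoagland and Arnon solution, at 25 °C with 16 h of light a day. Autotetraploid leaves, whose chromosome set is doubled, at 6 h and in their own control, and diploid leaves at 12 and 48 h, are given beside the diploid 6 h values where they bear on a gene. The labels say neither how the 6 h harvest relates to the daily steps nor at what hour of the day each group was harvested. Differences between the 6 h and the control leaves therefore cannot be told apart from differences with the hour of the day.

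A leaf that loses water closes its stomata, slows the growth of its cells and takes up less carbon dioxide. Genes with known parts in these processes include rubisco activases, which keep the carbon-fixing enzyme rubisco in its active form, expansins, which loosen cell walls during growth, aquaporins, which let water through membranes, and enzymes that remove reactive oxygen. All levels below are CPM, the share of a library's counts on a common scale with TMM factors between libraries, unless FPKM, a level per transcript length, is named. In bulk leaf RNA, fewer cells of a type and less RNA per cell cannot be told apart.

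Library totals ran from 34242144 to 42544833 counts at 6 h and from 36575055 to 46986018 in the controls. Pearson's r of the log2 levels over the genes tested, which are not independent replicates, was 0.932 to 0.934 between the 6 h libraries and 0.930 to 0.934 between the controls. It was 0.905 to 0.913 between a 6 h library and a control. The first principal component of these 6 libraries held 33.5% of their variance and had every 6 h library at −64.7 or below and every control at 65.8 or above. The tissue label was checked with leaf and flower genes. The rubisco activases RCA1 and RCA2 stood at 1309.8 and 8067 CPM or more in each of the 6 libraries. The flower regulator LFY had 5 counts over the 6 h libraries and 21 over the controls, and AP1 had none in either.

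The reference gene table gives 18 tested genes an established name, and 7 of them fell at 6 h while none passed the test in the other direction. The 7 were RCA1, GAPDH, EXPA4, EXPA5, TUA, Glu-1 and Zj2-CP, or 38.9% of the 18. Over all genes tested, 9.93% were called lower and 21.3% were called in either direction, by edgeR's quasi-likelihood test at a Benjamini-Hochberg adjusted p of 0.05. Among the 2230 genes above 100 CPM, where most of the 18 lie, 485 were called lower and 377 higher, 38.7% in either direction. The median log2 fold change of the 18 was −0.36, beside −0.00166 over all genes.

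**Figure D1:**
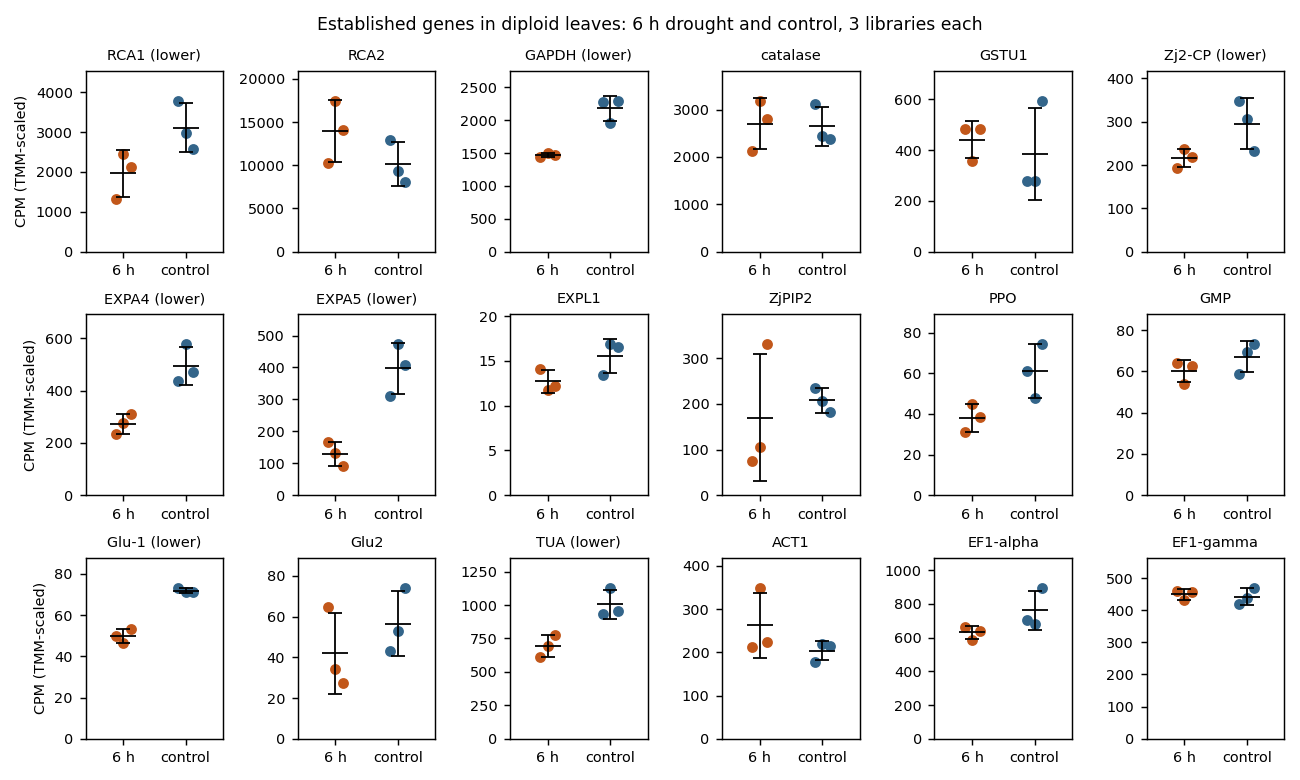
Levels of the 18 established genes in CPM, 1 panel a gene, with the 3 libraries at 6 h on the left and the 3 controls on the right. Points are libraries, long bars are means and whiskers are 1 SD; "lower" marks the 7 genes called lower at 6 h. Of these 7, all but Zj2-CP have every library at 6 h below every control, and RCA2, catalase, GSTU1 and ZjPIP2 overlap.

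The carbon-fixing machinery was represented by the activase genes RCA1 (LOC107411034) and RCA2 (LOC107413423). RCA1 stood at 1309.8, 2455 and 2130.4 CPM at 6 h, against 3782, 2976 and 2567 CPM in the controls. The groups did not overlap, with replicate 1 the lowest library at 6 h and the highest of the controls. The log2 fold change was −0.66 ± 0.20 (SE, adjusted p = 0.0256 by edgeR's quasi-likelihood test). RCA1 lost this call without replicate 1 of the 6 h leaves (−0.44, adjusted p = 0.122) or of the controls (−0.51, adjusted p = 0.119), and in a model of the 6 libraries alone (−0.66, adjusted p = 0.158). RCA2 stood at 10293, 17452 and 14094 CPM at 6 h, against 12972, 9361 and 8067 CPM in the controls. These groups overlapped, since replicate 1 was again the lowest at 6 h and the highest of the controls. Its change of 0.46 ± 0.20 on the log2 scale (SE, adjusted p = 0.115) did not pass, and it passed without either of these libraries (0.64 and 0.67, adjusted p = 0.0356 and 0.033).

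Set against each other within a library, the activases differed far less between replicates. Per transcript length, the ratio of RCA1 to RCA2 was 0.108, 0.120 and 0.129 at 6 h, against 0.251, 0.271 and 0.270 in the controls. Every 6 h library lay below every control, and the ratio averaged 0.119 ± 0.0103 at 6 h and 0.264 ± 0.0111 in the controls (SD, n = 3 each). The log2 difference was −1.15 ± 0.081 (SE), and it ran from −1.21 to −1.08 on counts when any single library was left out. An exact two-sided permutation test gave p = 0.1, the smallest that 20 arrangements of 3 against 3 allow. The scaling between libraries cancels in this ratio, which was chosen after the values were seen. In the autotetraploid, which shares no library with the diploid, it was 0.0813, 0.0823 and 0.109 at 6 h, against 0.220, 0.226 and 0.255 in its controls (exact permutation p = 0.1, again the smallest possible). Diploid leaves had 0.0522 ± 0.00425 at 12 h and 0.296 ± 0.00818 at 48 h (SD, n = 3 each). RCA2 was the more abundant gene throughout, at 6949 ± 1563 FPKM at 6 h and 4909.8 ± 1192 FPKM in the controls, against 832 ± 226 and 1287 ± 256 FPKM for RCA1 (SD, n = 3 each). The sources used here do not say how reads that match both genes were counted.

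**Figure D2:**
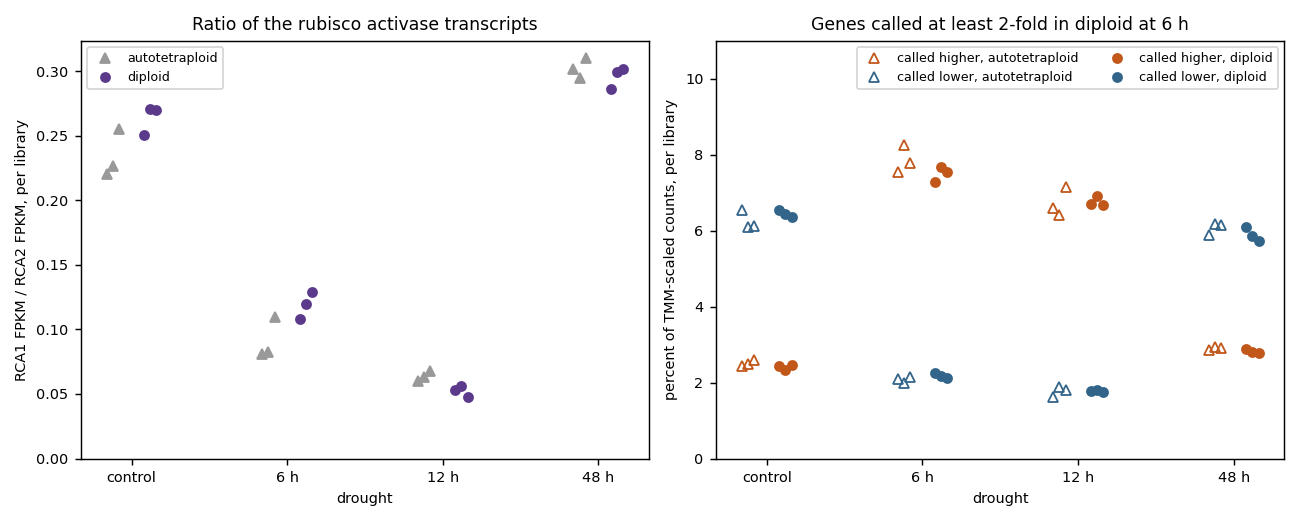
Left, the ratio of RCA1 to RCA2 in FPKM for each library by drought time, with triangles for the autotetraploid and circles for the diploid. Right, the percent of scaled counts held in each library by the 986 genes called at least 2-fold higher and the 834 called at least 2-fold lower in the diploid at 6 h; the ratio lies between 0.108 and 0.129 in the diploid 6 h libraries and between 0.251 and 0.271 in the diploid controls.

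GAPDH (LOC107418185), named for glyceraldehyde-3-phosphate dehydrogenase, an enzyme of sugar metabolism, had the smallest standard error of the 7 genes that fell. It stood at 1442, 1508 and 1465 CPM at 6 h, against 2283, 1964 and 2294 CPM in the controls. The lowest control lay well above the highest 6 h library, and the log2 fold change was −0.57 ± 0.07 (SE, adjusted p = 2.13e-05 by edgeR). In the autotetraploid GAPDH stood at 1607, 1514 and 1442 CPM at 6 h, against 2230.1, 2184 and 2282 CPM in the controls, a change of −0.55 ± 0.07 on the log2 scale (SE, adjusted p = 2.1e-05). The difference between these changes was 0.01 ± 0.105 (SE) and did not pass the interaction test.

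Cell wall and water genes followed. The expansin EXPA5 (LOC107411451) stood at 166, 132 and 90.9 CPM at 6 h, against 312, 472 and 407 CPM in the controls. Every 6 h library was below every control, a change of −1.62 ± 0.35 on the log2 scale (SE, adjusted p = 0.00266 by edgeR), the steepest fall among the 18. EXPA4 (LOC107414006) stood at 234, 277 and 310.2 CPM at 6 h, against 438, 577 and 472 CPM in the controls. It also fell without overlap, by 0.86 ± 0.28 on the log2 scale (SE, adjusted p = 0.0325). EXPA4 lost the call without replicate 2 or 3 of the controls or replicate 1 or 2 of the 6 h leaves, with adjusted p-values of 0.0533 to 0.115. EXPL1 (LOC107427312), named as an expansin-like gene, stood at 14.2, 11.8 and 12.2 CPM at 6 h, against 13.4, 16.9 and 16.5 CPM in the controls, and did not pass (−0.29 ± 0.23 SE, adjusted p = 0.421). In the autotetraploid the log2 fold changes were −2.18 ± 0.36 for EXPA5, −1.19 ± 0.28 for EXPA4 and 0.00296 ± 0.23 for EXPL1 (SE, adjusted p = 0.000182, 0.00374 and 0.998).

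The aquaporin ZjPIP2 (LOC107413694) varied more between replicates than between groups. It stood at 74.2, 106 and 330.5 CPM at 6 h, against 236, 207 and 181 CPM in the controls. Replicate 3 at 6 h was above every control and the other 6 h libraries were below every control. The difference of −0.29 ± 0.71 on the log2 scale (SE, adjusted p = 0.833) did not pass. Its autotetraploid libraries spread as widely, at 55.5, 257 and 246 CPM at 6 h, against 709, 110.0 and 207 CPM in the controls.

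Of 3 genes named for enzymes of oxidation and detoxification, none passed. Catalase (LOC107419839), which breaks down hydrogen peroxide, stood at 2128, 3185 and 2795 CPM at 6 h, against 3108, 2439 and 2379.9 CPM in the controls, and the groups overlapped (0.03 ± 0.13 SE, adjusted p = 0.904). Replicate 1 was the lowest library at 6 h and the highest of the controls for catalase too. GSTU1 (LOC107409956), a glutathione transferase of the tau class, stood at 483, 356 and 483 CPM at 6 h, against 278, 279 and 594 CPM in the controls. Its replicate 3 control was above every other library, and the difference of 0.20 ± 0.31 on the log2 scale (SE, adjusted p = 0.721) did not pass. In the autotetraploid GSTU1 rose by 1.02 ± 0.31 (SE, adjusted p = 0.0222). The difference between the ploidies, 0.82 ± 0.44 (SE, adjusted p = 0.809), did not pass. The polyphenol oxidase gene PPO (LOC107408734), whose enzyme oxidises phenols, stood at 30.98, 45.0 and 38.4 CPM at 6 h, against 61.0, 48.1 and 74.3 CPM in the controls. Its groups did not overlap, yet the difference of −0.68 ± 0.44 on the log2 scale (SE, adjusted p = 0.306) did not pass. In the autotetraploid PPO went the other way, by 0.79 ± 0.44 (SE, adjusted p = 0.217 by edgeR), and did not pass. The difference between the ploidies for PPO, 1.47 ± 0.62 (SE, adjusted p = 0.772 by edgeR), did not pass either.

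Of the remaining names, Glu-1 (LOC107434932) was among the tightest. It stood at 49.7, 46.7 and 53.0 CPM at 6 h, against 73.2, 71.0 and 71.0 CPM in the controls, and fell by 0.53 ± 0.11 on the log2 scale (SE, adjusted p = 0.00205). Zj2-CP (LOC107432242) stood at 194, 237 and 218 CPM at 6 h, against 348, 306 and 232 CPM in the controls. By CPM its groups overlapped, since replicate 2 at 6 h exceeded replicate 3 of the controls. Its fold change of −0.45 ± 0.16 (SE, adjusted p = 0.0492) passed narrowly and lost the call in 10 of 17 other settings. Glu2 and GMP overlapped between the groups and missed the threshold, at −0.43 ± 0.39 and −0.16 ± 0.19 on the log2 scale (SE, adjusted p = 0.493 and 0.629).

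Genes that laboratories often use as constant references were not uniform. TUA (LOC107435591), an alpha-tubulin gene, stood at 612, 690.3 and 777 CPM at 6 h, against 933, 1128 and 955 CPM in the controls, and fell without overlap by 0.54 ± 0.14 on the log2 scale (SE, adjusted p = 0.00886). TUA lost the call without replicate 1 of the 6 h leaves (−0.45, adjusted p = 0.0502). EF1-gamma (LOC107412556), for a translation elongation factor, stood at 460.2, 431 and 457 CPM at 6 h, against 418, 439 and 469 CPM in the controls. Its log2 fold change was 0.02 ± 0.06 (SE, adjusted p = 0.859), and it ran from −0.02 to 0.07 under every setting tried. EF1-alpha (LOC107422504) stood at 663, 587 and 641 CPM at 6 h, against 707, 683 and 895 CPM in the controls, without overlap. Its change of −0.27 ± 0.10 (SE, adjusted p = 0.0623) missed the threshold but passed in 6 of 17 other settings. The actin gene ACT1 (LOC107413530) had 1 library at 6 h, replicate 2, at 349 CPM, and its other libraries of both groups lay between 178 and 224 CPM.

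Across all genes, 2944 were called higher (11.4%) and 2566 lower (9.93%), and most of these changes were modest. At least 2-fold changes were called for 986 higher genes (3.82%) and 834 lower genes (3.23%). The median log2 fold change was 0.72 among the genes called higher and −0.71 among those called lower, and 66.5% and 67.5% of them differed by less than 2-fold. At least 4-fold changes were called for 298 higher and 182 lower genes, and at least 8-fold changes for 112 higher and 64 lower genes. All 3 libraries at 6 h lay above all 3 controls for 2830 of the genes called higher, beside 19.1% of all genes tested, and below them for 2445 of those called lower, beside 17.9%. The share of genes called grew with level, at 3.86% of 4328 genes under 1 CPM, 21.7% of 6690 genes between 5 and 20 CPM and 38.7% of 2230 genes above 100 CPM. Above 100 CPM the lower calls were the more numerous, 485 against 377, and below 1 CPM the higher calls were, 107 against 60.

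**Figure D3:**
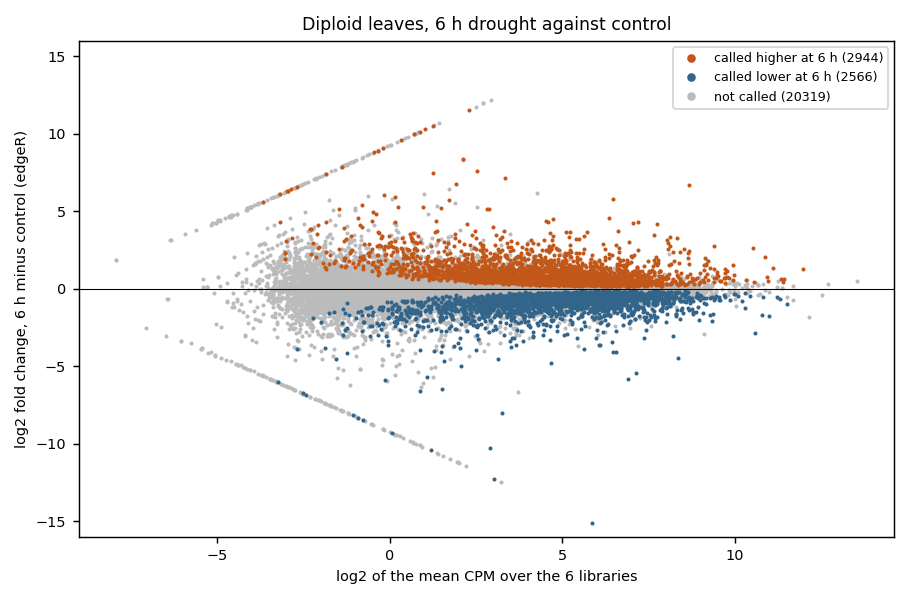
The edgeR log2 fold change of 6 h over control for each gene (vertical) against the log2 of its mean CPM over the 6 libraries (horizontal), for the 25791 tested genes with a count in these libraries. Orange marks the 2944 genes called higher, blue the 2566 called lower and grey the rest; the oblique lines of points at the left are genes with no count in one of the groups, whose fitted fold is no estimate of size.

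Most genes of the table carry an identifier of the LOC form without a name, and the sources used here do not pair these with descriptions. Among the 8 largest rises, LOC107414343, LOC107429253 and LOC107406957 reached more than 100 CPM in every 6 h library. LOC107414343 stood at 829.7, 839.7 and 762 CPM at 6 h, against 6.00, 4.98 and 12.3 CPM in the controls, a change of 6.71 ± 0.62 on the log2 scale (SE, adjusted p = 3.85e-07 by edgeR). LOC107429253 stood at 145, 188 and 191 CPM at 6 h, against 2.20, 3.18 and 4.07 CPM in the controls. LOC107406957 stood at 126, 156 and 186 CPM at 6 h, against 6.22, 5.54 and 7.73 CPM in the controls, a change of 4.58 ± 0.18 (SE, adjusted p = 5.25e-12). In each of them the lowest 6 h library exceeded the highest control many times over. LOC107429319, LOC107417587 and the unnamed gene models Ziziphus_jujuba_newGene_6497 and Ziziphus_jujuba_newGene_2189 rose by 4.31 to 5.11 on the log2 scale, to levels of 12.6 to 68.3 CPM at 6 h, against 0.359 to 4.20 CPM in the controls. Without replicate 1 of the controls the rise of Ziziphus_jujuba_newGene_2189 was 5.27 in place of 4.49. These 7 genes passed in the autotetraploid as well, with log2 fold changes of 3.23 to 6.51. Diploid leaves had LOC107414343 at 605 CPM at 12 h and 5.56 CPM at 48 h on average, and LOC107429253 at 281 and 6.17 CPM. At 48 h LOC107429253, LOC107406957 and LOC107417587 were still called higher than the controls. Their log2 fold changes were 0.97, 0.85 and 1.16 (adjusted p = 0.02, 0.0146 and 0.0162 by edgeR), when 2.01% of all genes tested were called. The rest of these 7 genes did not pass at 48 h.

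Tight falls of the same order were seen for LOC107412003 and LOC107405158. LOC107412003 stood at 4.13, 4.18 and 4.15 CPM at 6 h, against 227, 222 and 256 CPM in the controls, a change of −5.82 ± 0.18 on the log2 scale (SE, adjusted p = 4.19e-13 by edgeR). LOC107405158 stood at 11.3, 8.57 and 10.7 CPM at 6 h, against 180.3, 179.7 and 171 CPM in the controls, a change of −4.12 ± 0.15 (SE, adjusted p = 3.23e-12). Both fell in the autotetraploid by a like amount, 6.02 ± 0.19 and 4.29 ± 0.15 on the log2 scale (SE). In diploid leaves at 48 h LOC107405158 averaged 234 CPM and LOC107412003 173 CPM, neither past the threshold against the controls (adjusted p = 0.114 and 0.12). LOC107428525 was lower too, at 24.9, 37.0 and 22.1 CPM at 6 h, against 745, 669 and 481 CPM in the controls. The same gene varied widely between diploid replicates later, at 18.3, 17.6 and 476 CPM at 12 h and 601, 21.0 and 509 CPM at 48 h. It lost its call (adjusted p = 0.0228) without any single library at 6 h, at adjusted p-values of 0.0611 to 0.084, and its autotetraploid libraries stood at 22.6, 31.1 and 25.4 CPM at 6 h, against 655, 627 and 632 CPM in the controls.

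**Figure D4:**
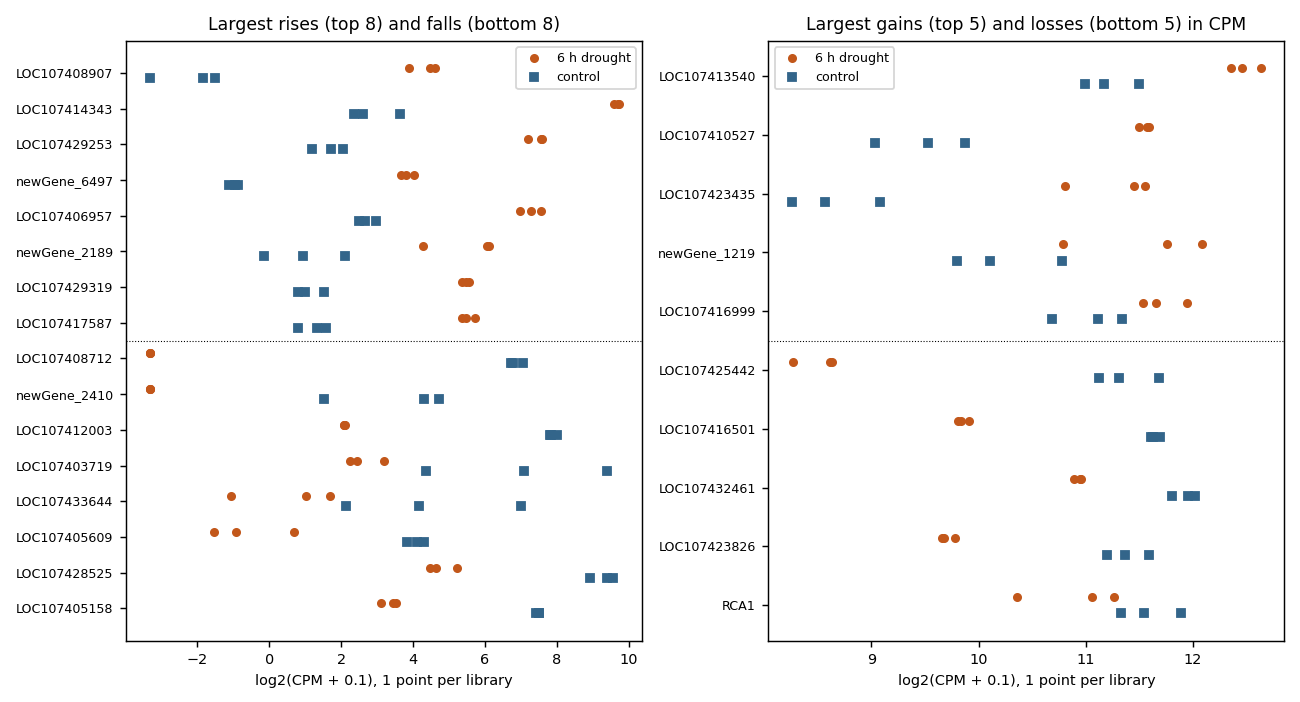
Levels as log2(CPM + 0.1), 1 point per library, with circles for the 6 h leaves above squares for the controls. Left, the 8 largest rises and 8 largest falls; right, the 5 genes with the largest gain and the 5 with the largest loss in mean CPM. The groups are apart for every gene shown, as the rule that picked them required, and the spread between controls is widest for LOC107403719 and LOC107433644.

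Most of the other large falls and the top rise came from genes whose counts switched between libraries of 1 group somewhere in the series. LOC107408712 had no count in any 6 h library, against 4859, 4810 and 4627 counts in the controls, so it was at least 1459-fold lower at 6 h, taking 3 counts per library as the floor (adjusted p = 0.0061). The same gene had no count in replicate 2 of the autotetraploid controls, beside 4656 and 6807 counts in the other two, and none in any diploid library at 12 h. Ziziphus_jujuba_newGene_2410 had no count at 6 h, against 124, 703 and 1161 counts in the controls, at least 204-fold lower (adjusted p = 0.0458), and none in 14 of the 24 libraries. LOC107408907, the largest fitted rise, stood at 14.6, 24.1 and 21.8 CPM at 6 h, against 0.180, 0.249 and 0 CPM in the controls, and in the autotetraploid at 15.6, 17.5 and 0.431 CPM at 6 h, against 0.324, 0.0566 and 10.7 CPM. LOC107405609, LOC107433644 and LOC107403719, the last not a switching gene, were also lower at 6 h, without overlap by the rule that picked them. The controls of LOC107403719 still ran from 20.4 to 669 CPM and those of LOC107433644 from 4.27 to 126 CPM. In the autotetraploid LOC107433644 passed, at −6.72 on the log2 scale (adjusted p = 0.00581 by edgeR). LOC107408712, Ziziphus_jujuba_newGene_2410 and LOC107405609 did not pass there (−3.12, −4.39 and −0.13, adjusted p = 0.189, 0.208 and 0.962). LOC107408907 (1.59, adjusted p = 0.572) did not pass there either, nor did LOC107403719, which went the other way (1.16, adjusted p = 0.397). Several of the diploid calls at 6 h rested on single libraries. Ziziphus_jujuba_newGene_2410 lost its call without any 1 of the 6 libraries (adjusted p = 0.0519 to 0.115). LOC107408907 lost it without any control or without replicate 2 or 3 at 6 h (adjusted p = 0.0557 to 0.102). LOC107433644 lost it without any library at 6 h or without replicate 2 of the controls, where its log2 fold change was −2.62 (adjusted p = 0.216). LOC107403719 moved from −5.45 to −3.63 on the log2 scale without replicate 3 of the controls (adjusted p = 0.00672), and lost its call in a model of the 6 libraries alone (adjusted p = 0.0542). LOC107405609 lost it without replicate 1 of the controls or replicate 1 or 3 at 6 h (adjusted p = 0.0511 to 0.103).

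Of the genes tested, 995 stood near 0 in one library and at 5 CPM or more in another of the same group, at least 50 times higher, in at least 1 of the 8 groups. They made up 9.68% of the LOC identifiers not found in the reference table and 2.04% of the protein-coding genes found in it. Of these 995 genes 20 were called at 6 h, beside 21.3% of all genes tested. The wide spread that defines the 995 itself works against a call. The 20 included 13 of the 64 genes called at least 8-fold lower and 6 of the 112 called at least 8-fold higher. With all 995 left out before fitting, an alternative chosen after seeing the data, 5614 genes were called, 5455 of them shared with the calls above. The sources used here do not say how reads that match several genes were assigned, and the part of this in these values was not tested.

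Called genes with groups apart were also ranked by change in mean CPM, a ranking that favours abundant genes. RCA2, which missed the call, gained more than any gene listed next, at means of 13946 CPM at 6 h and 10133 CPM in the controls. LOC107413540 stood at 5251, 6356 and 5629 CPM at 6 h, against 2887, 2311 and 2043 CPM in the controls, the largest gain among called genes, with a change of 1.25 ± 0.22 on the log2 scale (SE, adjusted p = 0.00046 by edgeR). LOC107410527 stood at 3089, 2889 and 3045 CPM at 6 h, against 736, 524 and 941 CPM in the controls. LOC107423435 stood at 1795, 2996 and 2803 CPM at 6 h, against 541, 380.1 and 306 CPM in the controls. None of these groups overlapped, as the rule that picked the genes required. LOC107413540, LOC107410527 and LOC107423435 rose in the autotetraploid too. Ziziphus_jujuba_newGene_1219 and LOC107416999 rose by 1.35 and 0.65 on the log2 scale, calls that did not hold with only the 6 libraries in the model (adjusted p = 0.074 and 0.0908). LOC107416999 did not pass in the autotetraploid (0.21, adjusted p = 0.455), and in the diploid it also lost its call without replicate 3 of the controls or replicate 2 at 6 h (adjusted p = 0.0759 and 0.0773). At 12 h LOC107413540 averaged 1276 CPM and LOC107416999 366 CPM in diploid leaves, both called lower than the same controls (adjusted p = 0.00376 and 7.86e-09), at a time when 30.2% of all genes tested were called in either direction.

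Losses were of the same size. LOC107425442 stood at 308, 391 and 398 CPM at 6 h, against 3283, 2546 and 2224 CPM in the controls, a change of −2.88 ± 0.27 on the log2 scale (SE, adjusted p = 3.67e-07 by edgeR). LOC107416501 stood at 914, 966 and 897 CPM at 6 h, against 3113, 3154 and 3303 CPM in the controls. LOC107432461 stood at 1899, 1972 and 1987 CPM at 6 h, against 3972, 3576 and 4138 CPM in the controls. LOC107423826 fell to 818, 882 and 810.2 CPM at 6 h, against 3076, 2642 and 2344 CPM in the controls. RCA1 was the fifth. The groups were apart for all 5, as the rule that picked them required. All 5 fell in the autotetraploid, with log2 fold changes of −3.10 to −0.95. At 48 h the diploid means of LOC107425442, LOC107416501 and LOC107423826 were 2936, 3443 and 2877 CPM, none past the threshold against the same controls, at a time when 2.01% of all genes tested were called.

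As sets, the 986 genes called at least 2-fold higher held 7.27 to 7.66% of the scaled counts at 6 h, against 2.33 to 2.47% in the controls, and the 834 called at least 2-fold lower held 2.11 to 2.24% at 6 h, against 6.36 to 6.54% in the controls. These shares follow from how the sets were chosen and are given without a test. In autotetraploid libraries, whose levels are not part of the diploid fold change but which shared the model's filter and estimate of spread, the first set held 7.55 to 8.27% at 6 h, against 2.42 to 2.59% in their controls. The second held 1.99 to 2.15% at 6 h, against 6.09 to 6.55% in their controls. Diploid libraries at 48 h held 2.77 to 2.89% in the first set and 5.73 to 6.10% in the second.

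Gene by gene, 796 of the 986 genes (80.7%) called at least 2-fold higher in the diploid were also called higher in the autotetraploid at 6 h, where 25.1% of all genes tested were called and 12.7% called higher. They are 24.3% of the autotetraploid's higher list. Of the 834 genes called at least 2-fold lower, 644 (77.2%) were called lower in the autotetraploid, beside 12.4% of all genes tested, and they are 20.1% of its lower list. None of the 1820 was called in the opposite direction. Among genes called at least 8-fold lower the share was 53.1%, made up of 31 of 51 genes with stable counts and 3 of the 13 whose counts switched between libraries. Genes not called in the diploid were called higher in the autotetraploid in 5.99% and lower in 6.17% of cases. The median log2 fold change of the 986 genes was 1.53 in the diploid and 1.48 in the autotetraploid, and that of the 834 was −1.45 and −1.40.

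**Figure D5:**
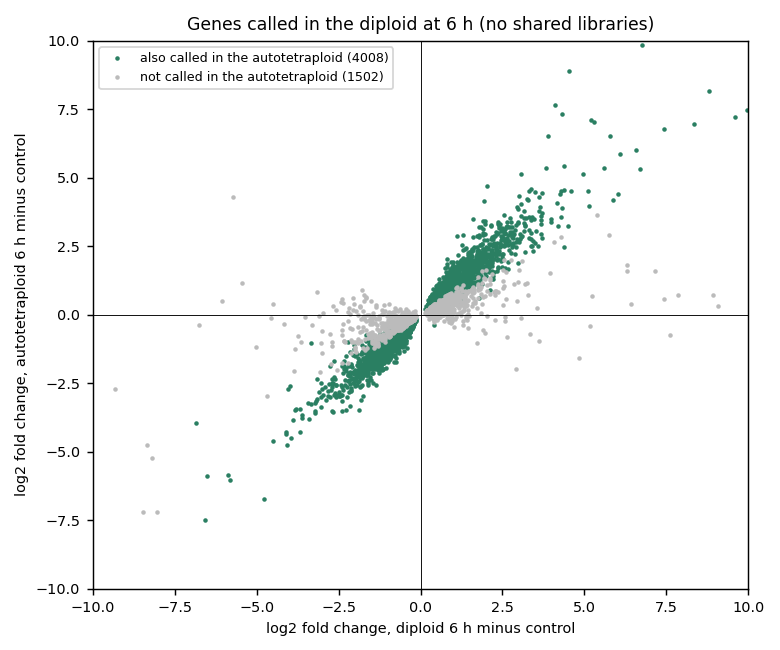
The log2 fold change of 6 h over control in the autotetraploid (vertical) against that in the diploid (horizontal) for the 5510 genes called in the diploid; 8 genes lie outside the axes. Green marks the 4008 genes also called in the autotetraploid and grey the 1502 that were not; nearly all green points lie in the quadrants of equal sign.

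The difference between the ploidies in their 6 h response was tested directly. No gene (0%) passed edgeR's interaction test, with a smallest adjusted p of 0.234, and 1650 genes (6.39%) had an unadjusted p under 0.05. DESeq2 called 98 genes and limma 0. For the named genes that fell in the diploid, the interaction was 0.17 ± 0.16 for Glu-1, −0.38 ± 0.29 for RCA1, −0.57 ± 0.49 for EXPA5 and −0.24 ± 0.19 for TUA (SE, adjusted p = 0.91, 0.871, 0.906 and 0.894).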

How the data were processed

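Leaf RNA was sequenced in 24 libraries of 8 groups. The authors deposited 1 table of whole-number read counts per gene and library, not normalized, per the file headers, and 1 table of FPKM values per group, whose unit the deposited headers do not name and which was taken from the values. HISAT2 and StringTie are listed, with no version, per the submitters' processing notes. The sources used here give no settings, genome build or strand. Gene names came from the synonyms of the ASM3175591v1 gene table, which held 19767 of 29293 LOC identifiers.

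The main model used edgeR 4.0.16 under R 4.3.3: filterByExpr by group, TMM scaling, 1 mean per group over all 24 libraries with robust dispersions (16 residual degrees of freedom), the quasi-likelihood test and Benjamini-Hochberg adjustment over 25829 genes. Standard errors are the absolute log2 fold change divided by the square root of F. Alternatives used DESeq2 1.42.0, limma 3.58.1 on log2(FPKM + 0.1), other scalings, filters and sets of libraries. The model was tested on simulated data. None of the 6 diploid 6 h and control libraries repeated another of its group, as their counts differed by 42.2 to 112 times the chi-square expected from sampling. Whether replicates are separate plants is not labelled, so the p-values cover only library-to-library spread, possibly technical.

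Named genes were all those with an established name, and, among called genes with a mean of at least 5 CPM, groups apart and stable counts in both groups, the 8 largest rises and falls in log2 fold change and the 5 largest gains and losses in CPM. Gene lists planned by product description could not be applied, since no description was paired with the identifiers, and planned promoter motifs were not analysed here. This comparison was picked from those of the series, and the lists were chosen, with earlier results of these data known.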

Additional observations from a re-analysis of the deposited data

How the results depend on the processing

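The count of 5510 calls was 3570 in a model of the 6 libraries alone, and 1414 when the replicate block was added there. Both of these fits leave fewer residual degrees of freedom than the 16 of the main model, the blocked one the fewest. The part of this in the lower counts was not tested. The count was 5219 to 6734 under the other settings that kept all replicates, and 4271 to 4990 with a replicate left out. The 1820 calls of at least 2-fold were 1007 with the replicate block and only the libraries compared, and 1545 to 1752 with a replicate left out. Under the other settings that kept all replicates they ran from 1287, for genes of at least 5 CPM, to 2228, by DESeq2. Of the 18 established genes 7 were called; 0 were with the replicate block and only the libraries compared, 4 without replicate 1 of the diploid 6 h leaves, and 4 to 7 over all fits that left out a replicate. The interaction, with 0 calls, had 98 by DESeq2, 3 with only the 12 libraries compared, 3 with the replicate block there too, and 0 to 7 with a replicate left out. Replicate numbers are shared by the groups, and the labels do not say what a number stands for. The deviations of same-numbered libraries from their group means had r = 0.02, 0.02 and −0.01, beside −0.07 to 0.04 for different numbers. Deviations from a mean of 3 libraries sum to 0 within a group, so these values depend on each other. Whether same-numbered libraries shared a batch was not tested. With the replicate block over all 24 libraries 5314 genes were called, 5183 of them shared with the 5510. No called gene named here changed sign. Of the calls 53.4% were higher, beside 60.5% by limma on FPKM, 50.2% with relative log expression factors, 49.9% for genes of at least 5 CPM and 49.1% by DESeq2, so the balance of higher and lower calls turned in the last 2; the cause was not tested. Under 1 CPM 3.86% of genes passed, and the part of depth in this was not tested.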

Other observations

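Gene models without a name, which the authors' annotation adds to the LOC identifiers, had fewer calls than all genes, with a more uneven split. Of 2760 such models tested, 242 were called higher and 115 lower, 12.9% in all beside 21.3% over all genes tested. Of their calls 67.8% were higher, beside 51.7% of the 4310 calls among protein-coding genes of the reference table. Under the other 3 scalings the share was 65.0 to 68.7% for the models and 48.3 to 54.5% for the protein-coding genes. Their level differs, with a median of 1.46 CPM for the models and 18.5 CPM for the protein-coding genes. At like levels the shares called were closer, and the models did not always have the lower one. Between 1 and 5 CPM 13.5% of the models and 12.3% of the protein-coding genes were called, and between 5 and 20 CPM 25.4% and 23.3%. The models had the lower share under 1 CPM (3.62% against 4.18%), from 20 to 100 CPM (31.2% against 33.2%) and above 100 CPM (32.4% against 39.1%). Between 5 and 20 CPM, 71.6% of 134 calls among the models and 55.1% of 1049 calls among the protein-coding genes were higher. Above 100 CPM the models had 5 higher and 7 lower calls. The difference between the classes was not tested.

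Neighbouring genes were called in the same direction more often than the share over all neighbours. In the gene order of the ASM3175591v1 table, 17.7% of the tested genes that follow a gene called higher were themselves called higher, beside 12.9% over all 17315 pairs. After a gene called lower, 17.1% were called lower, beside 12.1%. For opposite directions the shares were 9.77% lower after higher and 10.4% higher after lower. Runs of at least 4 neighbours called in 1 direction numbered 13 for higher and 8 for lower calls, the longest with 5 genes. Overlap between neighbouring genes was not checked, and no test was run.

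A total of 163 tested genes had no count in the 3 controls, including 38 with no count in any of the 6 libraries. Another 123 had counts in the controls and none in the 3 libraries at 6 h. Of the 163 and the 123, 17 and 10 were called, beside 11.4% of all genes tested called higher and 9.93% called lower. LOC107429312 was among the 163, at 202, 164 and 180 counts at 6 h, against 0 in every control (adjusted p = 0.0106 by edgeR). That made it at least 65.6-fold higher with 3 counts per library as the floor. LOC107409073 had 592, 472 and 714 counts at 6 h, against 0 in every control, and did not pass (adjusted p = 0.117 by edgeR). Both were chosen after their values were seen.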
